A study of Mus musculus with 8 samples.

Results

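The complement components examined here are 5 genes, C1qa, C1qb, C1qc, C3 and C4b, which were chosen by name because they are components of the complement system that brain cells make. They are 5 of the 22430 genes in the long-read count table, and each was found by its Ensembl identifier. A gene was tested between the ages when it had a mean of over 5 reads per library, which held for 4 of them (C1qa, C1qb, C1qc and C4b) and not for C3, with a mean of 4.0 reads.

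One library was made from each of 8 male mice of the inbred strain C57Bl/6JRj, 4 of them young adults of 6 months (6m) and 4 of them aged animals of 24 months (24m). The labels give no engineered allele and no treatment, and the spread between libraries is a spread between animals. RNA of a whole hemisphere was sequenced directly on an Oxford Nanopore (ONT) device, where a native RNA molecule passes through the pore from its poly(A) end, without amplification. The sample labels name a poly(A) kit for cDNA libraries instead, and the direct RNA protocol of the methods was taken as the one used. A hemisphere mixes all brain regions and cell types, and females and other strains were not part of these libraries.

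Complement is a cascade of blood and tissue proteins that tags particles for removal. In the classical pathway the recognition molecule C1q, built from A, B and C chains encoded by C1qa, C1qb and C1qc, binds a surface and activates proteases that cleave C4 and then C3, and fragments of both remain attached as tags. In the brain, C1q is made mainly by microglia, the resident macrophages, C4 by astrocytes and some neurons and oligodendrocytes, and C3 by reactive glia, and the pathway is known for its part in the removal of synapses.

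The 3 C1q genes lie side by side on the minus strand of chromosome 4, at chr4:136606009-136626161 in GRCm39, a stretch of 20153 bases in which C1qb, C1qc and C1qa follow each other and each has 3 exons in its canonical transcript. The stretches upstream of the annotated starts of C1qb and C1qc are shown because the chains are neighbouring genes that are read together below. They come from RefSeq and were placed on GRCm39 by exact match, at chr4:136613512-136613761 for the 250 bases before C1qb and at chr4:136620377-136620475 for the 99 bases before C1qc, and both are written along the minus strand. Capitals mark the letters GAGGAA, a core bound by PU.1, the myeloid ETS factor, and TGCTGA, a half-site of MAF factors, on either strand.
C1qb upstream: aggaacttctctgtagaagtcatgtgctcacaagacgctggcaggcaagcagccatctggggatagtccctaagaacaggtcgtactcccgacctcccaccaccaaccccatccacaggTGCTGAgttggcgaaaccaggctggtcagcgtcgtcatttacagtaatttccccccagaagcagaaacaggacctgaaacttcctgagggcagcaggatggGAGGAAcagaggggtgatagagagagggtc
C1qc upstream: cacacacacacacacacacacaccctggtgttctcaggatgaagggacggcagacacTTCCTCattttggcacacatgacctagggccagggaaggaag

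In these letters GAGGAA begins 30 bases before the C1qb start, and its reverse complement lies 42 bases before the C1qc start. Distances are to the starts in the GENCODE annotation. For C1qc the RefSeq start lies further downstream, so only 99 of the 300 bases of its RefSeq window precede the GENCODE start. The other bases of both windows were searched but are not printed. TGCTGA begins 131 bases before the C1qb start and was not found in the C1qc window. Neither motif overlaps the other. Of 32851 mouse promoter windows of 300 bases, 28.3% hold GAGGAA and 19.5% hold TGCTGA on either strand, so the matches are common and describe the letters only. The letters TATAAA of a TATA box (13.6% of windows) and TTCNNNGAA, a core of STAT factors (8.3%), were searched in the same way and did not occur in the C1qb or C1qc window.

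C4b lies on the minus strand of chromosome 17, at chr17:34947354-34962912, with 41 exons and a canonical transcript of 5435 bases. It has a close copy, C4a, which is not analysed here. Over 5202 aligned coding bases the copies are 96.2% identical, they differ at 198 bases, and the longest run without a difference is 433 bases. The 60 coding bases in which they differ most, with 13 differences in exon 21 of each gene, are shown with the differing bases in capitals. A read that starts at the poly(A) end covers these bases only when it is long enough to reach exon 21. The 60 bases lie at chr17:34954404-34954463 in C4b and at chr17:35035062-35035121 in C4a, on the minus strand.
C4b: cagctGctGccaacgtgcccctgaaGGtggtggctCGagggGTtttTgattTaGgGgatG
C4a: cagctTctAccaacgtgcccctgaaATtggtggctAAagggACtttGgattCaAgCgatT

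Since the sources used here do not state how reads that map to more than 1 gene were counted, a read of C4a placed on C4b cannot be told apart in the table. No other component had an annotated copy at an identity of at least 90%, apart from the exon bases shared with antisense RNAs, of which 61 lie in C1qb, 247 in C1qc, 334 in C3 and 366 in C4b.

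The libraries held between 573152 and 1255424 reads on genes. Levels are given as CPM, reads scaled to a common library size with edgeR's TMM factors. Where a library shows 0 reads, up to 3 reads remain possible, or 2.30 to 5.42 CPM. The first principal component of log2 CPM held 39.4% of the variance and parted the ages. The 24m library of replicate 1 stood apart on the second component, with a score of 38.4 against -17.5 to 7.48 in the others, so results on the components are also given without it. Age was tested over all 9375 genes with edgeR's quasi-likelihood test, and a gene is called changed at a Benjamini-Hochberg adjusted p (padj) of at most 0.05 and an absolute log2 fold change (log2FC, 24m against 6m) of at least 0.58. By this rule 14.5% of the tested genes changed, 10.3% upwards and 4.17% downwards, and the median log2FC of all tested genes was -0.0034.

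C4b, the source of the C4 protein, was the component with the clearest difference between the ages. Its reads numbered 48, 29, 48 and 46 in the 6m libraries and 95, 139, 116 and 157 in the 24m libraries, or 59.1, 52.4, 59.7 and 57.8 CPM against 145, 145, 148 and 120 CPM. Every 24m library lay far above every 6m library, and replicate 4 was the lowest of the aged ones. The mean level rose from 57.3 ± 3.32 CPM to 140 ± 12.9 CPM (SD, n = 4 per age), with a log2FC of 1.27 ± 0.14 (SE, padj = 1.06e-06), a 2.41-fold difference. C4b ranked 15 among the 9375 tested genes by p, and 318 of them (3.39%) had a higher log2FC. In bulk tissue, more cells that make a transcript and more of it per cell cannot be told apart, which holds for each level reported here. Without the 24m library of replicate 1 the log2FC of C4b was 1.25.

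**Figure D1:**
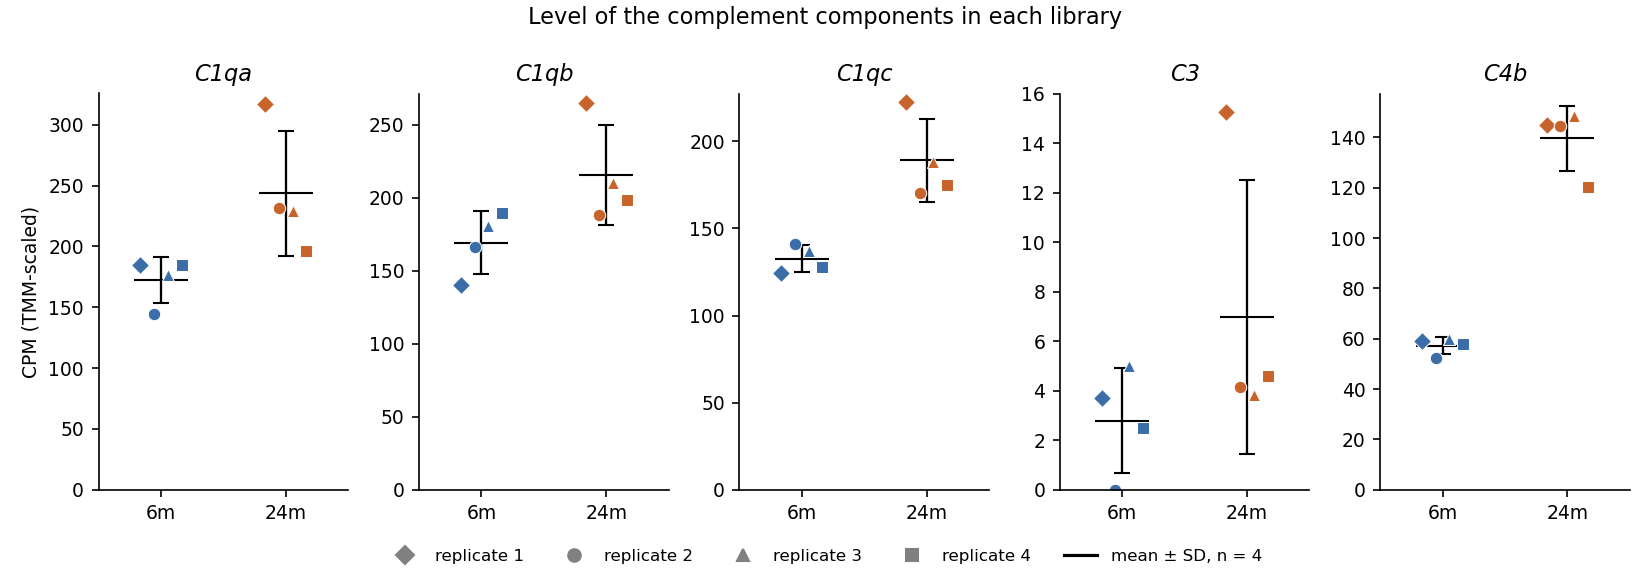
Level of each complement component in each library, in TMM-scaled CPM on a linear axis from 0 (a separate scale per gene), with points for the 4 libraries of each age and the mean ± SD. The 24m points of C4b sit between 120 and 148 CPM, all above the 6m points of 52.4 to 59.7 CPM, those of C1qa and C1qc are higher without overlap, those of C1qb overlap, and C3 stays near the limit of detection apart from 1 library.

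The C1q chains showed smaller differences. C1qa, which encodes the A chain, had 150, 80, 142 and 147 reads at 6m and 208, 223, 179 and 256 reads at 24m, or 185, 145, 177 and 185 CPM against 317, 232, 229 and 196 CPM. The ages did not overlap, although the lowest 24m library lay only a little above the highest 6m library. Mean C1qa rose from 173 ± 19.0 CPM to 244 ± 51.6 CPM (SD, n = 4 per age), with a log2FC of 0.47 ± 0.13 (SE, padj = 0.0119), which passed the adjusted p and stayed under the fold minimum.

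C1qb, which encodes the B chain, had 114, 92, 145 and 151 reads at 6m and 174, 181, 164 and 259 reads at 24m. In CPM these were 140, 166, 180 and 190 against 265, 188, 210 and 199, so the lowest 24m library lay just under the highest 6m library and the ages overlapped. Mean C1qb went from 169 ± 21.5 CPM to 215 ± 34.3 CPM (SD, n = 4 per age), and its log2FC of 0.34 ± 0.13 (SE) missed the threshold by a narrow margin (padj = 0.0557). The miss does not show that C1qb was alike at both ages.

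C1qc, which encodes the C chain, had 101, 78, 110 and 102 reads at 6m and 146, 164, 147 and 228 reads at 24m, or 124, 141, 137 and 128 CPM against 223, 171, 188 and 175 CPM. The ages did not overlap, and the 6m libraries lay close together. Mean C1qc rose from 133 ± 7.72 CPM to 189 ± 23.6 CPM (SD, n = 4 per age), with a log2FC of 0.50 ± 0.12 (SE, padj = 0.00419), again under the fold minimum.

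In each C1q chain the highest library was the same one, the 24m library of replicate 1. Without it the log2FC fell to 0.33 for C1qa (padj = 0.0247), to 0.24 for C1qb (padj = 0.115) and to 0.43 for C1qc (padj = 0.00449). That library also held the highest summed level of 4 marker lists, those of blood leukocytes, border and perivascular macrophages, activated microglia and choroid plexus. Markers of blood leukocytes summed to 39.6 CPM there and to between 6.24 and 12.3 CPM in the other 24m libraries (12.7 to 29.9 CPM at 6m), and markers of border and perivascular macrophages to 18.3 CPM against 6.14 to 8.96 CPM (8.62 to 16.3 CPM at 6m). The sum of the activated microglia markers was 16344 CPM there and between 13787 and 15988 CPM in the other libraries. Fth1 (9748 CPM) and Apoe (4743 CPM) made up most of it in that library. The choroid plexus markers summed to 4355 CPM against 2188 to 4226 CPM, and Ttr alone held 4304 CPM of the former. Of the leukocyte markers Plac8, a gene of myeloid and lymphoid cells, held 10 reads in the same library. Ccr2 and Cd3e were at 0 in every library. Each macrophage marker held at most 4 reads in the 24m library of replicate 1, so that sum rests on few reads. The part of these cells in the C1q levels was not tested.

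C3, the central component on which the pathways converge, was near the limit of detection. It had 3, 0, 4 and 2 reads in the 6m libraries and 10, 4, 3 and 6 reads in the 24m libraries, 9 against 23 in all. The 24m library of replicate 1 stood out with 15.2 CPM against 3.84 to 4.60 CPM in the other 24m libraries, and the ages overlapped. It is the same library in which leukocyte markers were highest, and their part was again not tested. C3 was not tested among the 9375 genes. In a fit without the filter on low counts its log2FC was 1.05 ± 0.59 (SE, padj = 0.274), so a difference was not detectable at this depth.

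Of the 4 tested components, 1 (C4b) changed by the full rule, against 10.3% of all tested genes that changed upwards. With the adjusted p alone, 3 of 4 were higher at 24m, against 12.3% of all tested genes, and in the same 3 every 24m library lay above every 6m library, which held for 11.1% of all tested genes. The median log2FC of the 4 was 0.49, beside -0.0034 for all tested genes. The C1q chains ranked lower than C4b, with 1961 tested genes above the log2FC of C1qa, 2501 above that of C1qb and 1837 above that of C1qc.

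**Figure D2:**
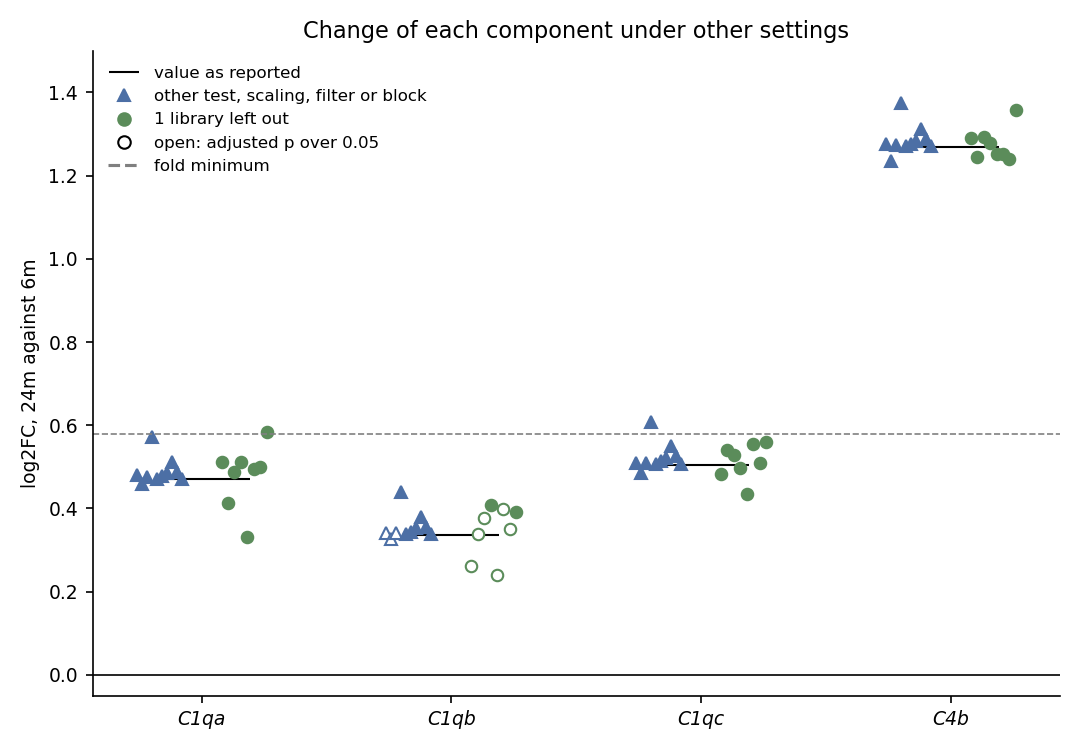
The log2FC of the 4 tested components as reported (black line), with another test, scaling, filter or block (triangles) and with 1 library left out (circles), where open symbols have a padj over 0.05 and the dashed line is the fold minimum. C4b stays between 1.24 and 1.37, C1qa ranges from 0.33 to 0.58 and C1qc from 0.43 to 0.61, and C1qb lies on both sides of the padj threshold.

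The levels of the components were also set against each other per kilobase of canonical transcript, since these transcripts run from 1087 bases (C1qa) to 5435 bases (C4b). On that scale the order at 6m was C1qa with 159 ± 17.5 CPM per kb, C1qc with 71.6 ± 4.17, C1qb with 66.8 ± 8.49, C4b with 10.5 ± 0.610 and C3 with 0.542 ± 0.411 (SD, n = 4). At 24m the order was the same, with 224 ± 47.4, 102 ± 12.7, 85.1 ± 13.6, 25.7 ± 2.37 and 1.35 ± 1.07 CPM per kb. C1qb and C1qc overlapped in their ranges at both ages and were the only neighbours in the order that did. A direct RNA read stands for a molecule rather than for a piece of fixed length, so the division by length is a convention. It decides the order of C1qb and C1qc, since before it the mean CPM of C1qb was above that of C1qc at both ages (169 against 133 at 6m and 215 against 189 at 24m), while C4b stayed below the C1q chains and C3 below C4b on either scale.

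Whether C4b and the C1q chains differed in their change with age was tested on their ratio within each library, which does not depend on the scaling between libraries. The log2 ratio of C4b to C1qa was -1.63, -1.45, -1.55 and -1.66 at 6m and -1.13, -0.68, -0.62 and -0.70 at 24m. No 24m library reached down to the 6m libraries, and the 24m library of replicate 1 was the lowest of its age. The difference between the ages was 0.79 ± 0.13 (SE), a 1.73-fold higher ratio (exact permutation test, two-sided, p = 0.0286, adjusted over 3 ratios 0.0286, n = 4 per age), and this p is the smallest that the design allows.

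The ratios to the other chains did not overlap between the ages either, and moved in the same direction. C4b to C1qb differed by 0.92 ± 0.15 (SE) on the log2 scale and C4b to C1qc by 0.77 ± 0.12 (SE), each with the same exact permutation p of 0.0286. Set against the summed CPM of the C1q chains, the level of C4b came to between 11.5% and 13.2% of that sum at 6m and to between 18.0% and 24.5% at 24m. The 3 ratios share C4b, so they are not independent of one another.

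**Figure D3:**
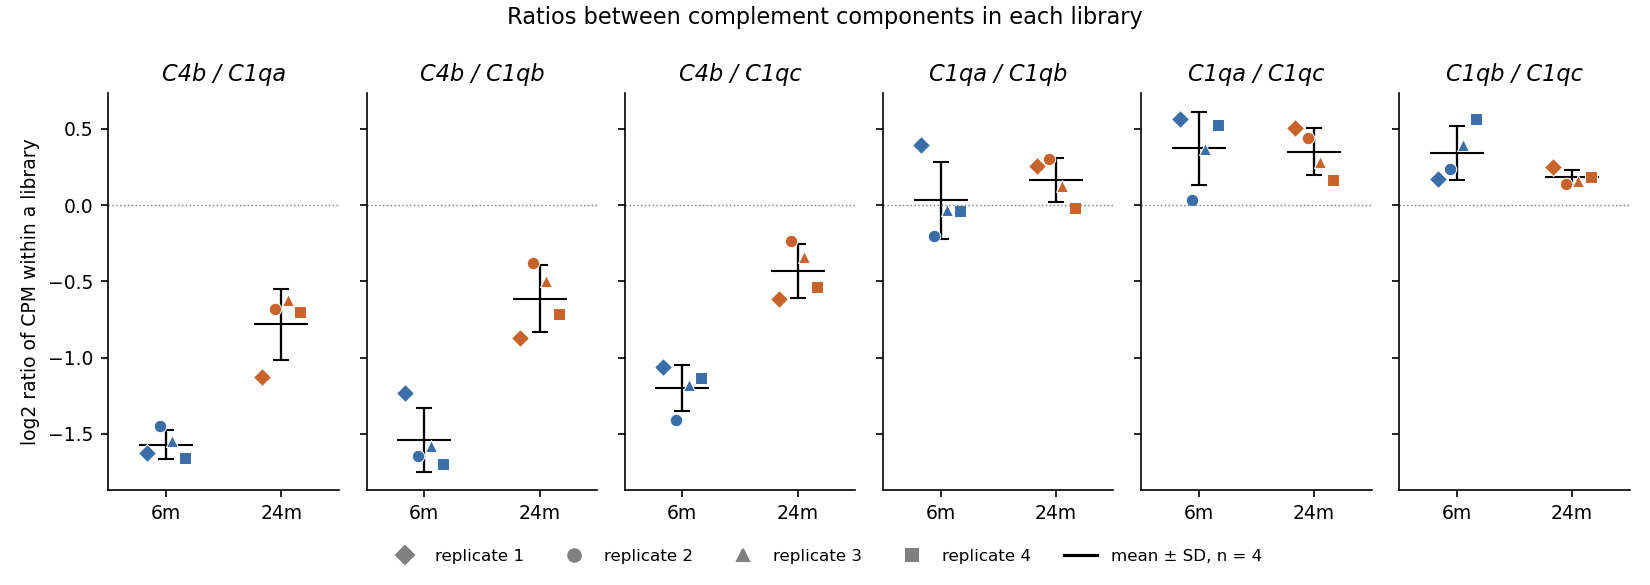
log2 ratios of CPM within each library for C4b over each C1q chain and for the chains over each other, with points for the 4 libraries of each age and the mean ± SD. The 24m ratios of C4b lie above the 6m ratios in the first 3 panels, while the ratios among chains overlap between the ages in the other 3.

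The chains of C1q assemble in equal numbers in the protein, and the shares of their transcripts overlapped between the ages. C1qa made up 32.0% to 41.1% of the C1q reads of a library at 6m and 34.5% to 39.4% at 24m. For C1qb the ranges were 31.2% to 37.8% and 31.9% to 34.9%, and for C1qc they were 25.5% to 31.2% and 27.7% to 30.7%. With 250 to 743 C1q reads per library, the widest exact (Clopper-Pearson) 95% interval of such a share ran from 30.8% to 43.1%, for C1qb in the 6m library of replicate 2, and these intervals cover counting error only.

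No difference between the ages passed the test in the ratios among the chains. The log2 ratio of C1qa to C1qb differed by 0.14 ± 0.15 (SE, exact permutation test, two-sided, adjusted p = 0.514, n = 4 per age), that of C1qa to C1qc by -0.02 ± 0.14 (adjusted p = 0.886) and that of C1qb to C1qc by -0.16 ± 0.090 (adjusted p = 0.429), each by exact permutation. These misses do not show that the proportions were the same at both ages.

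Microglia are known as the main makers of C1q in the brain, and their marker genes were set beside the chains. The count table holds 14 microglia markers, of which 10 were tested, and 5 changed upwards and none downwards, against 10.3% and 4.17% of all tested genes. The 5 were Laptm5 (log2FC 1.57), Ly86 (1.16), Tmem119 (1.03), Ctss (0.75), a lysosomal protease, and Tyrobp (0.68), the signalling partner of Trem2. Csf1r, the receptor on which microglia depend, was at 0.44 (padj = 0.0556). Cx3cr1, a defining receptor of microglia, held at most 1 read in a 6m library and 3 in a 24m library.

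Summed over the 14 markers, the microglia level was 504 to 526 CPM at 6m and 617 to 697 CPM at 24m, without overlap. The log2 ratio of each chain to this sum showed no difference past the test, with 0.10 ± 0.18 (SE) for C1qa, -0.04 ± 0.14 for C1qb and 0.12 ± 0.083 for C1qc (exact permutation test, two-sided, adjusted over 4 ratios 0.8, 0.8 and 0.4, n = 4 per age). A test that misses its threshold does not show that the chains and the markers moved alike. A higher sum at 24m without overlap was not particular to microglia. Neuronal markers summed to 3535 to 3762 CPM at 6m and 4463 to 4911 CPM at 24m. For oligodendrocyte markers the sums were 2146 to 2697 CPM and 2930 to 3807 CPM. The sums of astrocyte, endothelial, fibroblast and choroid plexus markers overlapped between the ages. Among 11 tested markers of activated microglia, Axl (1.03), a receptor for dying cells, and B2m (0.89), the light chain of MHC class I, changed upwards and none changed downwards, against 10.3% and 4.17% of all tested genes. In this list Fth1 and Apoe held the most reads and had a log2FC of -0.19 and 0.05. No marker of border and perivascular macrophages was tested, and of these Lyve1 was at 0 in every library and Mrc1 had 1 read in all.

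Astrocytes are known as the main makers of C4 in the brain. Of 12 astrocyte markers 10 were tested, and 3 changed upwards (Slc1a3 at 1.65, Gja1 at 1.42 and Fgfr3 at 0.65) and 2 downwards (Slc4a4 at -1.22 and Slc1a2 at -0.59), against 10.3% and 4.17% of all tested genes. Aldoc and Ntsr2, the markers with the most reads, had a log2FC of -0.13 and -0.46. Their summed level was 2984 to 3667 CPM at 6m and 2823 to 3562 CPM at 24m and so overlapped. The log2 ratio of C4b to this sum was between -5.96 and -5.74 at 6m and between -4.61 and -4.24 at 24m, without overlap. It differed by 1.39 ± 0.095 (SE), with an exact permutation p of 0.0286, the smallest possible. After adjustment over the 4 ratios to markers this p was 0.114 and did not pass. With 4 ratios, 1 alone at the smallest p could not pass, whatever its size. Aldoc made up most of the astrocyte sum, with a mean of 2341 of 3340 CPM at 6m and 2148 of 3074 CPM at 24m.

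Of 3 tested markers of reactive astrocytes 2 changed upwards and none downwards, against 10.3% and 4.17% of all tested genes. Gfap, an intermediate filament, rose by a log2FC of 1.94 ± 0.17 (SE, padj = 5.03e-08). Serpina3n, a secreted protease inhibitor, rose by 1.70 ± 0.30 (SE, padj = 2.91e-04), and Vim was at 0.42 (padj = 0.0521). Gfap stood at 60.3, 70.5, 41.1 and 74.1 CPM at 6m and at 267, 217, 284 and 179 CPM at 24m. The log2 ratio of C4b to Gfap within a library was between -0.42 and 0.53 at 6m and between -0.93 and -0.57 at 24m, without overlap, a ratio chosen after its values were seen and given with no test. The summed level of the 11 reactive markers in the table went from 119 to 170 CPM at 6m to between 319 and 456 CPM at 24m. C4b, Gfap and Serpina3n were each higher at 24m, while 8 of the 11 reactive markers were not tested. The part of reactive astrocytes in the level of C4b was not tested.

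**Figure D4:**
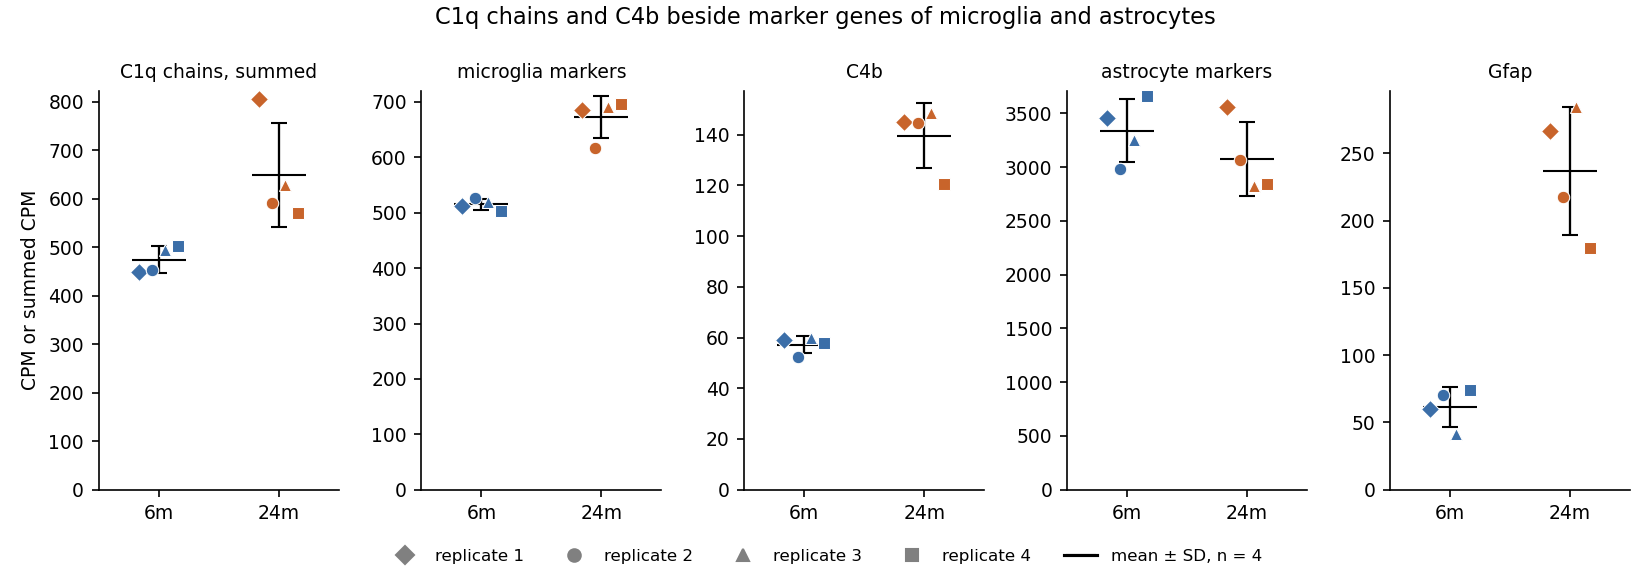
Summed CPM of the C1q chains and of the microglia markers, CPM of C4b, summed CPM of the astrocyte markers and CPM of Gfap in each library, on linear axes from 0 (a separate scale per panel), with the mean ± SD of 4 libraries per age. The C1q sum and the microglia sum are higher at 24m without overlap, C4b and Gfap are far higher, and the astrocyte sum overlaps between the ages.

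Markers of other cells also moved, and their counts are to be read against the 10.3% of all tested genes that changed upwards and the 4.17% that changed downwards. All 5 tested genes of red blood cells were lower at 24m (summed level 6090 to 10032 CPM at 6m and 3350 to 6283 CPM at 24m, with Hba-a1 at -0.75 and Hba-a2 at -0.74), as was Ly6c2 (-1.51), the only leukocyte marker tested. Of 10 oligodendrocyte markers 2 changed upwards, among them Mbp at 0.72 (Cnp, second in reads, was at 0.56), and of 11 neuronal markers 4 did (Snap25, Gad1, Thy1 and Slc17a7, between 0.58 and 0.77; Tubb3 and Eno2 held the most reads, with -0.30 and 0.38). None of 4 endothelial (Ly6c1 at -0.578, Slc2a1 at -0.02), 3 fibroblast (Igfbp2 at -0.36, Dcn at 0.01) and 3 choroid plexus markers (Ttr at -0.11, Folr1 at -0.84) changed. Ly6c1 passed the adjusted p (padj = 0.015) and missed the fold minimum narrowly. The part of these cells in the levels of the components was not tested.

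The rest of the pathway was sparse in these libraries. Of 54 other complement genes in the table, 13 had no read in any library and 15 were tested. Of these, 2 changed upwards and 1 downwards, against 10.3% and 4.17% of all tested genes, and their median log2FC was 0.08.

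None of the 5 other classical components in the table, the proteases that act between C1q and C4 among them, was tested. C2, which joins C4 in the enzyme that cleaves C3, had 5 reads in the 6m libraries and 20 in the 24m libraries, but an overlapping gene, Gm20547, takes part of its exons on that strand. C1ra, C1rb and C1s1, the C1 proteases, had between 5 and 18 reads each over the 8 libraries.

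Of 9 lectin pathway genes 2 were tested. Masp2, a protease that can cleave C4 without C1q, was at 18.5, 21.7, 18.7 and 11.3 CPM at 6m and at 7.62, 8.32, 5.12 and 8.44 CPM at 24m. It fell by 1.18 ± 0.35 on the log2 scale (SE, padj = 0.016), from 51 reads to 28 in all, and it shares 2585 exon bases with Tardbp on the opposite strand, so its reads are uncertain. Of 19 settings, the main one included, 17 tested Masp2 and 15 called it changed. The call was lost with DESeq2 and without the 24m library of replicate 3, and the remaining settings did not test Masp2. Masp1 was at 0.31 ± 0.36 (SE, padj = 0.588). None of the 10 genes of the alternative pathway and the terminal complex was tested, and 5 of them, Cfd, C6, C8a, C8b and C9, were at 0 in every library.

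Regulators that restrain complement were better covered, with 9 of 18 tested, 2 higher and none lower, against 10.3% and 4.17% of all tested genes. Susd4, a membrane protein of the brain that inhibits complement activation, stood at 22.2, 41.6, 22.4 and 35.2 CPM at 6m and at 68.6, 84.2, 55.0 and 60.6 CPM at 24m, without overlap. Its log2FC was 1.18 ± 0.20 (SE, padj = 2.02e-04). Sez6l, a neuronal protein of a family with complement-regulating domains, went from 15.1 ± 3.42 CPM to 32.5 ± 8.67 CPM (SD, n = 4 per age; log2FC 1.09 ± 0.26 SE, padj = 0.00413). Both calls held under all 18 other settings of the test.

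The relatives of Sez6l differed from it in value. Sez6l2, the regulator second in reads, fell by 0.29 ± 0.089 on the log2 scale (SE, padj = 0.021), under the fold minimum, and Sez6 was at 0.28 ± 0.13 (SE, padj = 0.137). Clu (clusterin), a secreted chaperone that blocks the terminal complex and the complement gene with the most reads, went from 1912 ± 86.1 CPM to 1719 ± 131 CPM (SD, n = 4 per age), with a log2FC of -0.15 ± 0.085 (SE, padj = 0.206). Csmd3, a large neuronal membrane protein with complement-control domains, was under the filter with 5, 7, 6 and 4 reads at 6m and 0 in each 24m library.

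No receptor changed among the 4 tested of 12, against 14.5% of all tested genes. So few tested genes do not set the receptors apart from that share. Calr, a chaperone that also binds C1q at the cell surface, was at -0.11 ± 0.11 (SE, padj = 0.536) and Lrp1, its endocytic partner, at 0.18 ± 0.11 (SE, padj = 0.258). Itgb2, the shared subunit of the C3 fragment receptors of microglia, had 12 reads in the 6m libraries and 35 in the 24m libraries, with a log2FC of 1.18 ± 0.44 (SE, padj = 0.0535). Its partner Itgam had 12 and 21 reads and the C3a receptor C3ar1 had 4 and 14 reads, and neither was tested. Itgam shares 3450 exon bases with Gm49368 on the same strand, so its reads are uncertain.

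**Figure D5:**
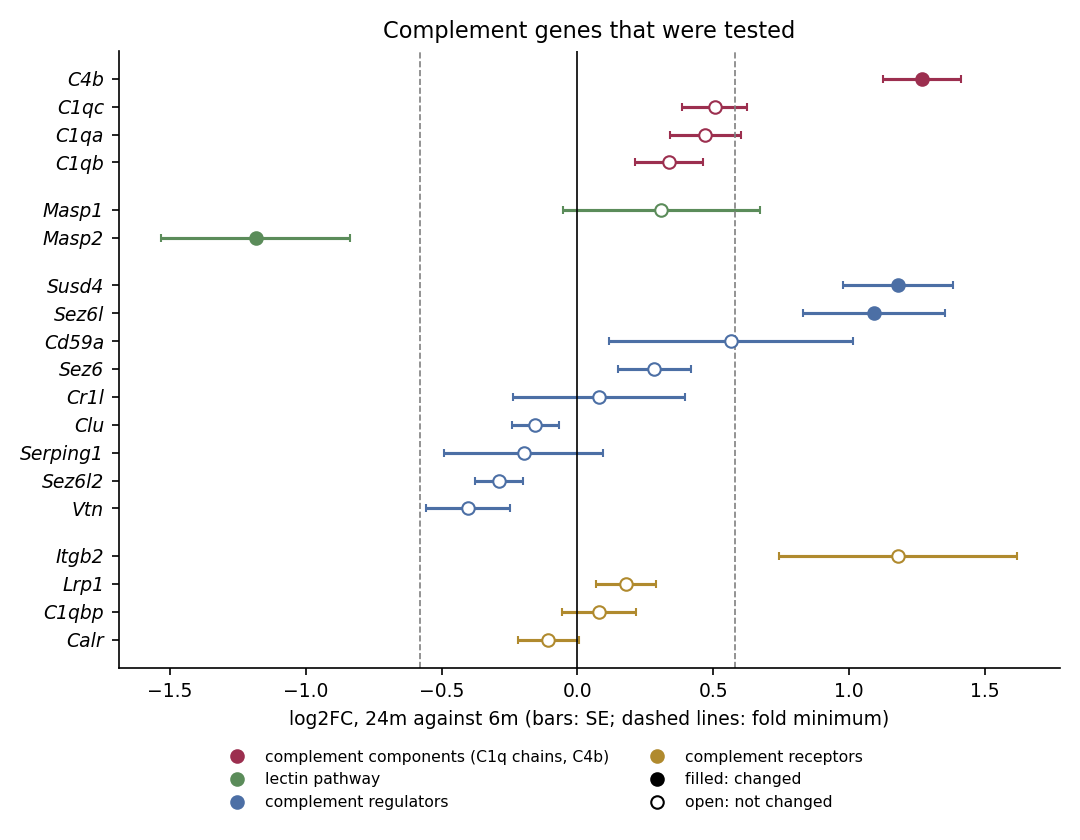
log2FC (24m against 6m) of the 4 tested complement components and the 15 other tested complement genes, with the SE as bars and the fold minimum as dashed lines. Filled points (C4b, Susd4, Sez6l and Masp2) changed, and the C1q chains lie between 0.34 and 0.50.

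Genes with a C1q domain outside complement were listed because their name and fold resemble C1q. Of 9 tested, 2 changed upwards and none downwards, against 10.3% and 4.17% of all tested genes. The 2 were Cbln3 (1.76, padj = 0.0111) and Cbln1 (0.76, padj = 0.0125), synapse organizers of the cerebellum. C1qtnf4, the member with the most reads, fell by 0.35 on the log2 scale (padj = 0.00937), under the fold minimum. Of the 3 neuronal pentraxins, relatives of proteins that bind C1q, 2 changed upwards and none downwards, against the same shares. Nptxr rose by 2.20 ± 0.24 (SE, padj = 7.95e-07) and Nptx1 by 1.60 ± 0.50 (SE, padj = 0.0223), while Nptx2 was at 0.15 (padj = 0.636). Cbln3 and Nptx1 rest on few reads, with 11 and 9 in the 6m libraries and 47 and 35 in the 24m libraries. Nptxr overlaps Npcd, transcribed in the same direction, by 890 exon bases.

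The pattern of each tested component over the 8 libraries was compared with that of 5163 tested genes with a mean of at least 20 reads, by Pearson r of log2 CPM and as a description only, since the libraries share an age difference and a scaling. Among the genes most like C4b were Mpped1 (r = 0.996) and Hapln4 (r = 0.989), and Gfap had r = 0.956 with it. Those most like C1qa were Eno2 (r = 0.986), Adap1 (r = 0.975) and Hdac11 (r = 0.968), and those most like C1qc were Tmem179, Actr1a and Derl1 (r = 0.977, 0.977 and 0.976). For C1qb they were Plekhm2 (r = 0.927), Csdc2 (r = 0.924) and Elk1 (r = 0.919). Among themselves the chains had r = 0.796 (C1qa and C1qb), 0.832 (C1qa and C1qc) and 0.871 (C1qb and C1qc). C4b had r = 0.906 with C1qc, 0.821 with C1qa and 0.710 with C1qb. Many other genes were closer to each chain. By r with C1qa, C1qc ranked 173 and C1qb 279, and by r with C1qc, C1qb ranked 138 and C1qa 248. For C1qb the ranks were 29 (C1qc) and 114 (C1qa). The microglia marker Csf1r had r = 0.572 with C1qa, 0.560 with C1qb and 0.850 with C1qc. Likeness between the chains was therefore not particular to them.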

How the data were processed

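ONT direct RNA reads of 4 young-adult (6m) and 4 aged (24m) brain hemispheres were analysed as raw counts per gene, as deposited. The authors aligned them to GRCm39 with minimap2 (version 2.24 in the submitters' processing notes) and used featureCounts, per the published methods. Strand, overlap and multi-mapping settings of the counting are not given in the sources used here. No normalization had been applied to the deposited counts. Identifiers were matched to GENCODE vM39, for 22281 of 22430 genes.

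Counts were scaled with TMM factors and tested between the ages with edgeR 4.0.16 in R 4.3.3 (quasi-likelihood test, age as the only term, Benjamini-Hochberg over the 9375 genes with a mean count over 5). A gene was called changed when padj did not exceed 0.05 and |log2FC| reached 0.58. Standard errors were derived from the log2FC and the F statistic. Ratios were formed per library from CPM with a pseudocount of 1 and compared by an exact two-sided permutation test of the age labels, which cannot give a p below 0.0286 with 4 libraries per age, with Benjamini-Hochberg adjustment within each family of ratios. On simulated counts with 9148 tested genes, edgeR recovered 55.3% of the genes changed by a log2FC of 1 and 98% of those changed by 2, with 9 false calls. DESeq2 1.42.0, limma-voom 3.58.1, other scalings and filters, a replicate block and leaving out each library were the alternatives. Replicate numbers are shared between the ages, but the correlation of same-numbered libraries' deviations from their group means was between -0.16 and 0.06, so they were not treated as pairs.

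Depth was 573152 to 1255424 counts per library. Limits for a count of 0 cover counting error only. Promoters are RefSeq sequences matched to GRCm39. Copies were searched with BLAST+ 2.17.0 and coding sequences were aligned with Biopython 1.88. The 5 genes and the lists of other complement and marker genes were chosen with earlier results of these data known. For each list the text names the changed genes and the 2 tested genes with the highest mean count. For each tested component it names the 3 tested genes with a mean count of at least 20 and the highest Pearson r of log2 CPM (prior count 2). Some genes that these rules select are left out here. Genes named outside these rules were chosen after their values were seen.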

Additional observations from a re-analysis of the deposited data

Results flagged for a closer look

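In 72 groups of 4 libraries, the level or total of a listed quantity was examined for a library far from the others of its age, and 5 groups had one. Chance alone would give about 3.6, at 1 in 20 groups. C3 was at 15.2 CPM in the 24m library of replicate 1 and between 3.84 and 4.60 CPM in the other 24m libraries. In the same library the log2 ratio of C4b to C1qa was -1.13, against -0.70 to -0.62 in the others of its age. C4b was at 120 CPM in the 24m library of replicate 4 and between 144.5 and 148 CPM in the others of its age. The summed level of the microglia markers was 617 CPM in the 24m library of replicate 2, against 686 to 697 CPM. The 6m library of replicate 2 held 573152 reads on genes, against 818963 to 843706 in the other 6m libraries. The causes were not tested.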

How the results depend on the processing

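C4b was called changed under each alternative, with a log2FC of 1.24 to 1.36 when 1 library was left out and of 1.24 to 1.37 under the other settings. C1qa and C1qc kept their direction and an adjusted p of at most 0.05 throughout, with 0.33 to 0.58 and 0.43 to 0.56 when 1 library was left out. C1qb crossed the threshold: its log2FC was 0.44 (padj = 0.0115) with library sizes alone, 0.34 with upper quartile factors, 0.34 without mitochondrially encoded genes, 0.35 without a filter, 0.38 with more than 5 counts in every library, 0.36 with filterByExpr and 0.34 (padj = 0.0463) with a replicate block, and 0.24 to 0.41 (padj 0.0394 to 0.204) when 1 library was left out, while DESeq2 (padj = 0.103), limma-voom and RLE factors left it over 0.05. The number of changed components was 2 with library sizes alone (C1qc joined at 0.61), 3 with the adjusted p alone, and 1 to 2 when 1 library was left out (C1qa joined at 0.58 without the 24m library of replicate 4). Library sizes alone shifted the median of all genes to 0.10. The whole table gave 834 changed genes with DESeq2 against 1359, and 989 to 1594 with 1 library left out. Of the changed genes 71.2% were higher at 24m, 84.5% with library sizes alone, 59.2% with limma-voom and 56.7% by adjusted p alone. The ratios of C4b to C1qa, C1qb and C1qc had the same values of 0.79, 0.92 and 0.77 with the replicate block, whose exact sign-flip test cannot go below p = 0.125, and ranged over 0.74 to 0.90, 0.85 to 1.03 and 0.69 to 0.83 when 1 library was left out, where 0.0571 is the smallest exact p. The sign of small ratios was not stable: with 1 library left out, C1qa over C1qc ranged from -0.14 to 0.041, C1qa over the microglia markers from -0.027 to 0.21 and C1qb over them from -0.13 to 0.031. The replicate block, whose numbers do not pair the mice, gave 1308 changed genes and altered no other call on the components, and no sample-number pairing was used elsewhere. Causes were not tested. At this depth C3 and 39 of 54 other complement genes in the table fell under the filter.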
